A study of Homo sapiens with 6 samples.

Results

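Some names in the human miRNA catalogue are known to resemble stretches of other structural RNAs, and 10 of them are described here. MiR-1260a, miR-1260b and miR-4454 resemble the ends of transfer RNAs (tRNAs), and miR-1246 and miR-1290 the U2 small nuclear RNA (snRNA). MiR-1291 resembles a small nucleolar RNA (snoRNA) and miR-4485-3p a mitochondrial ribosomal RNA (rRNA). MiR-3648, miR-3687 and miR-663a resemble the rRNA precursor or GC-rich sequence like it. In the files the 10 names are listed as hsa-miR-1260a, hsa-miR-1260b, hsa-miR-4454, hsa-miR-1246, hsa-miR-1290, hsa-miR-1291, hsa-miR-4485-3p, hsa-miR-3648, hsa-miR-3687 and hsa-miR-663a. The names were chosen by their known match to another RNA and not by a threshold, but edgeR fold changes and adjusted p-values of the same PRMT1 contrast had been seen when they were chosen, so their values in that contrast are a description. They were taken from the rows of known mature miRNAs, where 9 of the 10 names had a count, among 1727 names with a count in any library. Small RNA was sequenced from BEAS-2B, an immortalised human bronchial epithelial cell line, in 6 libraries. The labels' library protocol describes enrichment of polyadenylated RNA or removal of rRNA, although the tables hold small RNA classes, so how far that step set the rRNA and exon shares is not known. In 3 libraries the cells had been given pcDNA-PRMT1, a plasmid that over-expresses the arginine methyltransferase PRMT1, and in 3 control libraries the pcDNA3.1 plasmid, each for 48 h. Cells of both groups were thus given a plasmid, and the labels leave unsaid whether each library came from its own culture, so a p-value here measures the spread between libraries, which may be technical.

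Canonical miRNAs are cut from hairpin precursors by DROSHA and DICER and guide Argonaute proteins to messenger RNAs through the seed, bases 2 to 8. Abundant structural RNAs are also cut or degraded into pieces of similar length, and a small RNA library cannot tell by length alone whether a read is a processed miRNA or such a piece. Mature tRNAs carry an added CCA at the 3′ end, U2 snRNA is part of the spliceosome, and snoRNAs guide chemical changes of other RNAs.

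The sequences show why these names are set apart. RefSeq (GRCh38.p14) held a mature sequence for 9 of the 10 names, all except miR-3687. They are printed 5′ to 3′ with the seed in capitals.
miR-1260a: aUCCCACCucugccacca
miR-1260b: aUCCCACCacugccaccau
miR-4454: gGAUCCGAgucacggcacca
miR-1246: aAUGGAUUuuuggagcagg
miR-1290: uGGAUUUUuggaucaggga
miR-1291: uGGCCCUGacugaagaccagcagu
miR-4485-3p: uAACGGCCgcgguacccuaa
miR-3648: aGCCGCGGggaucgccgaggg
miR-663a: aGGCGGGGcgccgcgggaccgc

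The 3 names that resemble tRNA all had CCA within their last 4 bases, on the strand of the mature RNA, as did 143 of 2370 mature names in the table (6.03%). MiR-1260a and miR-4454 ended in CCA itself, as did 45 names in the table (1.9%), whereas miR-1260b has a further U. MiR-1260a and miR-1260b shared the seed UCCCACC with each other and with no further name there, and 17 of 18 aligned bases were identical, the difference being U9A, counted from the 5′ end of miR-1260a. MiR-1246 and miR-1290 overlapped by 17 bases with 16 identical and the difference G15U, counted from the 5′ end of miR-1246, but their seeds differed because miR-1290 starts further along. Of the 9 names, 6 were 20 bases long or shorter, against 15.36% of the mature names in the table, whose median length was 22 bases. MiR-663a and miR-3648 had GC contents of 90.9% and 81.0%, against a median of 52.2%.

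Matches in GENCODE release 29 transcripts (sense strand, at most 1 mismatch) are printed in DNA letters, with a mismatch in capitals.
RNU2-1 at miR-1246: aatggatttttggagcagg
RNU2-1 at miR-1290: tggatttttggaGcaggga
SNORA2C at miR-1291: tggccctgactgaagaccagcagt
MT-RNR2 at miR-4485-3p: taacggccgcggtaccctaa
MiR-1246 matched RNU2-1, a U2 snRNA gene on chromosome 17, exactly at bases 94 to 112 of its 191, and 19 snRNA genes in all. For miR-1290, no transcript outside its own hairpin matched exactly, and RNU2-1 matched at bases 96 to 114 with the single difference U13G, counted from the 5′ end of miR-1290. The exact match of miR-1291 lay at bases 2 to 25 of SNORA2C, the snoRNA also called SNORA34. MiR-4485-3p matched bases 893 to 912 of MT-RNR2, the large rRNA of mitochondria, and also the nuclear copies MTRNR2L8 and MTRNR2L12, exactly. Reads of miR-1246, miR-1291 and miR-4485-3p and of the RNA they match exactly therefore cannot be told apart by sequence alone, while a read of miR-1290 that covers its base 13 differs from RNU2-1 there. For miR-1260b, miR-4454, miR-3648 and miR-663a, 0 genes outside their own hairpins matched with at most 1 mismatch. For miR-1260a 2 genes did, each with 1 mismatch. Of these, 1 was annotated as a miRNA and 1 as a long intergenic non-coding RNA, neither as a tRNA. Nuclear tRNA sequences were not searched here. Whether the transcripts searched hold the rRNA precursor was not checked. The likeness of miR-1260a, miR-1260b and miR-4454 to tRNA ends is therefore background knowledge and not a match found. The same holds for the likeness of miR-3648 and miR-663a to the rRNA precursor. A match describes shared letters and does not show where a read came from.

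The annotated hairpins lie apart in the genome (GRCh38). MIR1291 (chromosome 12, 48654444 to 48654530, minus strand) overlaps an exon of SNORA2C and lies in an intron of KANSL2. MIR4485 (chromosome 11, 10508270 to 10508326, minus strand) lies in an exon of MTRNR2L8 on the same strand. MIR1290 (chromosome 1, 18897071 to 18897148, minus strand) is in an intron of ALDH4A1, and MIR663A (chromosome 20, 26208186 to 26208278, minus strand) overlaps an exon of the non-coding gene MIR663AHG. MIR1260A (chromosome 14, 77266218 to 77266290, plus strand) overlaps an exon of NGB, and MIR1260B (chromosome 11, 96341438 to 96341526, plus strand) an exon of MAML2, both on the opposite strand. For MIR1246 (chromosome 2, 176600980 to 176601052, minus strand), MIR4454 (chromosome 4, 163093574 to 163093628, minus strand) and MIR3648-2 (chromosome 21, 8986999 to 8987178, plus strand) no other annotated gene overlapped.

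PRMT1 libraries held 23.95 M to 25.79 M counts each and control libraries 24.01 M to 25.09 M, of which known miRNAs held 11.54 M to 16.42 M. No library was a copy of another, since every pair differed by a chi-square of at least 379.6 for each degree of freedom. That smallest value was of PRMT1 libraries 1 and 3, over 540 names. The epithelial markers of the miR-200 family, miR-205 and miR-203 (6 of 6 names with counts) summed to 76798 to 90579 counts in PRMT1 and 64633 to 93350 counts in control libraries. Most of this was miR-200a-3p (40931 to 60173 counts a library) and miR-200b-3p (22835 to 37269). MiR-205-5p and miR-203a-3p held only 50 to 135 and 34 to 64 counts a library, fewer than the neuronal miR-9-5p with 2177 to 3003. The liver marker miR-122-5p held 8 to 15 counts in PRMT1 and 9 to 19 in control libraries. Muscle markers (3 of 3 names with counts) summed to 141 to 153 counts in PRMT1 and 136 to 173 counts in control libraries, blood markers (3 of 3) to 808 to 1086 and 854 to 1714 counts, and neuronal markers (2 of 2) to 2363 to 3505 and 2522 to 3004 counts. In control library 2, unlike the rest, 65.5% of all counts were known miRNAs and 4.6% were of class precursor, against 46.2% to 60.0% and 1.76% to 2.08% in the others. PRMT1 messenger RNA was not analysed here. Since these are bulk libraries, fewer cells that hold an RNA and less of that RNA per cell cannot be told apart.

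Together the 10 names held 2858, 1221 and 6358 counts in PRMT1 libraries 1 to 3, against 1531, 1035 and 1848 counts in control libraries 1 to 3. They were a small part of the libraries, 0.0103% to 0.0524% of known miRNA counts in PRMT1 and 0.00630% to 0.0160% in control libraries. PRMT1 library 3 held the most and control library 2 the fewest, and the groups overlapped, since PRMT1 library 2 lay below control libraries 1 and 3. MiR-1260a made up 62.8%, 45.6% and 82.3% of the 10 names' counts in PRMT1 libraries and 32.98%, 35.3% and 55.3% in control libraries. CPM stands for counts per 1000000 known miRNA counts after TMM scaling, a correction for library composition.

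**Figure D1:**
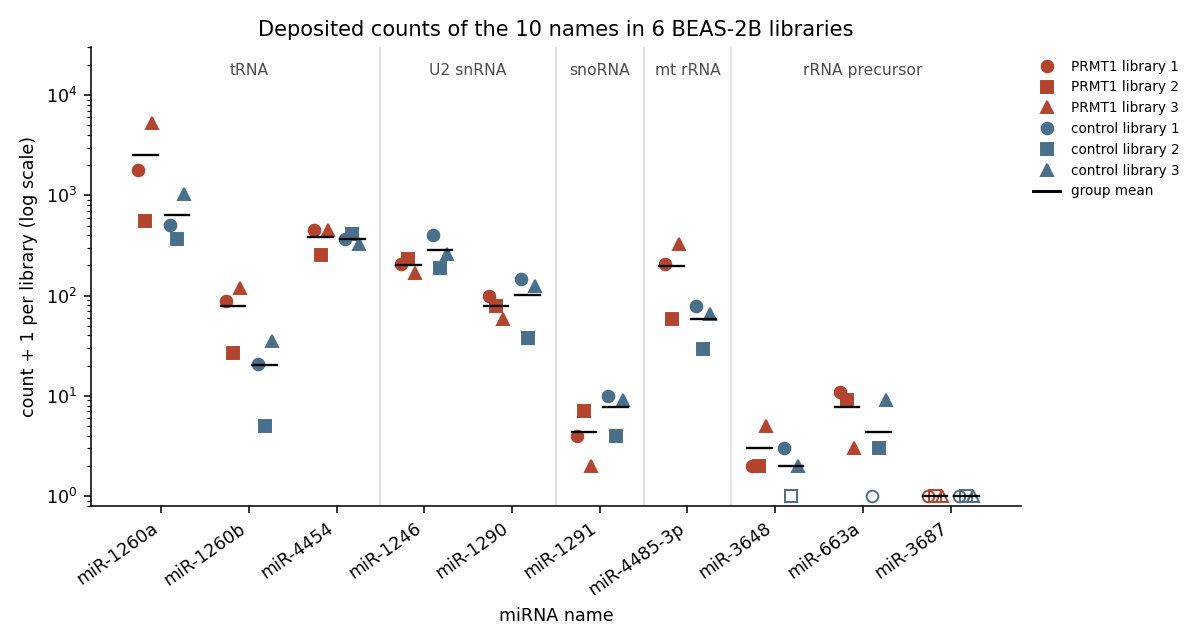
Deposited counts, plus 1 and on a log axis, of each of the 10 names in PRMT1 libraries (red) and control libraries (blue), with open symbols for a count of 0 and a bar for the group mean. MiR-1260a reached 5232 counts in PRMT1 library 3, the highest point of the plot, and miR-3687 was at 0 in every library.

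MiR-1260a, the most abundant of the 10 names, stood at 117, 45.8 and 438 CPM in PRMT1 libraries 1 to 3, against 37.1, 29.2 and 79.5 CPM in control libraries 1 to 3. PRMT1 libraries 1 and 3 lay above every control library, and PRMT1 library 2 lay between control libraries 1 and 3. The log2 fold change was 2.04 (95% interval -0.23 to 4.32, edgeR quasi-likelihood test, adjusted p = 0.741), and 0.74 without PRMT1 library 3. MiR-1260b followed the same order of libraries at a lower level, with 5.72, 2.14 and 9.78 CPM in PRMT1 libraries and 1.47, 0.320 and 2.64 CPM in control libraries. Its control library 2 value rests on 4 counts. The log2 fold change of miR-1260b was 1.98 (95% interval 0.18 to 3.78, edgeR adjusted p = 0.741).

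Because miR-1260a and miR-1260b are near-identical, counting could divide reads between them. MiR-1260b took 4.68%, 4.46% and 2.19% of the counts of both names in PRMT1 libraries (exact 95% binomial intervals 3.77% to 5.73%, 2.93% to 6.47% and 1.81% to 2.62%), and 3.81%, 1.08% and 3.22% in control libraries (2.34% to 5.82%, 0.296% to 2.75% and 2.24% to 4.47%). These intervals cover counting error only. The share was lower in PRMT1 library 3 than in PRMT1 library 1 beyond counting error, so the 2 names did not keep a fixed ratio within a group. Summed into 1 row, both names gave a log2 value of 2.04 (95% interval -0.23 to 4.31, edgeR adjusted p = 0.746), and 0.76 without PRMT1 library 3.

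MiR-4454, the third name that resembles a tRNA end, did not follow this pattern. It stood at 29.6, 21.0 and 37.4 CPM in PRMT1 libraries and 27.1, 32.8 and 25.4 CPM in control libraries, with overlapping groups. Its log2 fold change was 0.04 (95% interval -0.57 to 0.66, edgeR adjusted p = 0.983), and its sign turned under other scalings, at -0.0044 with RLE factors and -0.0015 with upper quartile factors. For the sum of the 3 tRNA-resembling names the log2 value was 1.58 (95% interval -0.21 to 3.37, edgeR adjusted p = 0.746), and 0.49 without PRMT1 library 3.

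MiR-4485-3p, whose sequence matches mitochondrial rRNA, stood at 13.3, 4.69 and 27.4 CPM in PRMT1 libraries 1 to 3, against 5.72, 2.24 and 5.06 CPM in control libraries 1 to 3. As for miR-1260a and miR-1260b, PRMT1 library 3 was highest, PRMT1 library 1 second and control library 2 lowest, and PRMT1 library 2 lay within the range of the control libraries. The log2 fold change was 1.80 (95% interval 0.28 to 3.32, edgeR adjusted p = 0.741), and 1.04 without PRMT1 library 3. Some other RNA was also highest in PRMT1 library 3. Rows of class exon held 6.04%, 5.43% and 6.73% of all counts in PRMT1 libraries and 4.87%, 2.60% and 5.21% in control libraries. These too were highest in PRMT1 library 3, second in PRMT1 library 1 and lowest in control library 2. Intron, intergenic and repeat reads were also lowest in control library 2, at 8.74%, 5.60% and 6.39% of all counts. Their highest values lay elsewhere, in control library 1, control library 3 and PRMT1 library 2. Exon reads differed from the 3 names in PRMT1 library 2. There they lay above every control library, whereas the 3 names lay within the control range. Of the marker names of other cell types, the neuronal miR-124-3p stood at 12.5, 15.3 and 42.0 CPM in PRMT1 libraries and 15.1, 11.9 and 13.8 CPM in control libraries, and the red blood cell miR-451a at 6.64, 8.63 and 19.5 CPM in PRMT1 libraries and 4.11, 8.56 and 4.20 CPM in control libraries, both highest in PRMT1 library 3. The neuronal miR-9-5p and the muscle miR-133a-3p were also highest there, at 251 and 8.28 CPM, the latter close to its 8.06 CPM in PRMT1 library 2. By contrast, the blood cell miR-486-5p and the muscle miR-1-3p were lowest in PRMT1 library 3, at 47.8 and 2.68 CPM. Of the epithelial markers, miR-200a-3p and miR-141-3p were highest in PRMT1 library 3 too, at 4433 and 26.2 CPM. The former was close to its 4416 CPM in control library 1. The epithelial miR-200b-3p, miR-200c-3p, miR-205-5p and miR-203a-3p were highest in other libraries. The part of exon reads and of these markers in the levels of the 3 names was not tested.

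**Figure D2:**
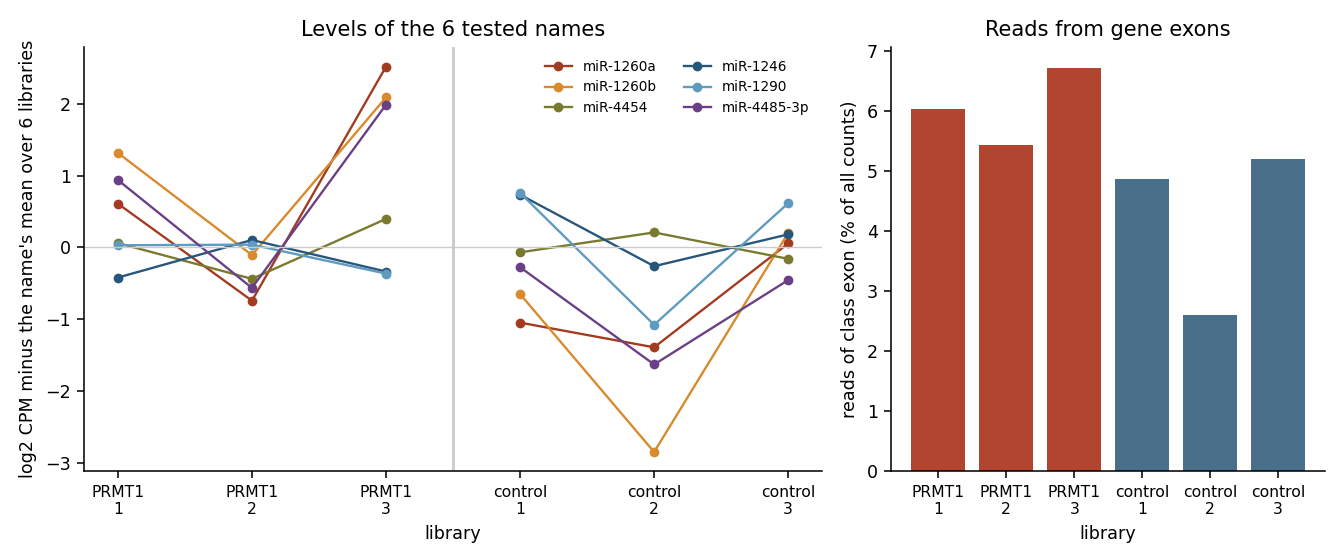
Left, log2 CPM of the 6 tested names minus each name's mean over the 6 libraries, with PRMT1 libraries left of control libraries. Right, reads of class exon as a percentage of all counts. MiR-1260a, miR-1260b and miR-4485-3p peak in PRMT1 library 3, where exon reads hold 6.73%, and are lowest in control library 2, where exon reads hold 2.60%. Intron, intergenic and repeat reads, not drawn, are also lowest in control library 2.

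The names that match U2 snRNA had lower means in PRMT1 libraries and did not pass the test. MiR-1246 stood at 13.3, 19.2 and 14.1 CPM in PRMT1 libraries and 29.6, 14.9 and 20.2 CPM in control libraries, with a log2 fold change of -0.47 (95% interval -1.18 to 0.23, edgeR adjusted p = 0.773). MiR-1290 stood at 6.38, 6.41 and 4.85 CPM in PRMT1 libraries and 10.6, 2.96 and 9.57 CPM in control libraries, with a log2 fold change of -0.39 (95% interval -1.38 to 0.61, edgeR adjusted p = 0.869). In control, library 1 was highest and library 2 lowest for both names, and the PRMT1 libraries spread less than the control libraries. Without control library 1, the log2 fold changes were -0.19 for miR-1246 and -0.10 for miR-1290, and without control library 2, that of miR-1290 was -0.79. MiR-1290 took 32.3%, 25.1% and 25.6% of the counts of the pair in PRMT1 libraries and 26.3%, 16.6% and 32.1% in control libraries. Summed, the pair changed by -0.45 on the log2 scale (95% interval -1.17 to 0.26, edgeR adjusted p = 0.787), with -0.16 when control library 1 was left out and -0.72 when control library 2 was.

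The remaining names were close to the limit of detection and did not pass the filter on low counts. A count of 3, the limit that a count of 0 allows, was 0.183 to 0.260 CPM before TMM scaling. MiR-1291, whose sequence matches SNORA34, had 3, 6 and 1 counts in PRMT1 libraries and 9, 3 and 8 counts in control libraries. The row of the SNORA2 and SNORA34 family itself had 1, 24 and 35 counts in PRMT1 libraries and 39, 14 and 28 counts in control libraries. MiR-663a had 10, 8 and 2 counts in PRMT1 libraries and 0, 2 and 8 counts in control libraries, and miR-3648 had 1, 1 and 4 counts in PRMT1 libraries and 2, 0 and 1 counts in control libraries. A separate row of class hairpin named miR-3648 had 4, 7 and 4 counts in PRMT1 libraries and 6, 4 and 13 counts in control libraries. Fitted without that filter, log2 fold changes were -0.99 for miR-1291 (SE 0.74), 0.92 for miR-3648 (SE 1.24) and 0.93 for miR-663a (SE 0.74), with edgeR adjusted p-values of 0.845, 0.898 and 0.845. For miR-3687 the count was 0 in all 6 libraries, so differences of these names between groups were not detectable at this depth.

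The comparison asked how small RNAs of these cells respond to PRMT1. At an adjusted p of 0.05, 0 of the 668 names tested with edgeR were called (0%), and 0 of the 6 tested members. DESeq2 was given all 1727 names with a count and called 4. Limma-voom was given the same 668 names as edgeR and called 0. Neither called a member. At an unadjusted p under 0.05, 36 of 668 names passed (5.39%), 2 members among them, miR-1260b and miR-4485-3p. The groups did not overlap in 68 of 668 names (10.2%), with PRMT1 higher in 36 (5.39%) and lower in 32 (4.79%), and in 0 of the 6 members. A log2 fold change above 0 was found for 4 of the 6 members and for 360 of 668 names (53.9%). Without a filter on low counts, 9 of 1727 names were called (0.521%), among them miR-1260b (edgeR adjusted p = 0.0216) and miR-4485-3p (edgeR adjusted p = 0.0493). The members were proposed with these counts already analysed, so their values describe these libraries and are no independent support for a change. Changes of 1 log2 unit or more, up or down, were fitted for miR-1260a, miR-1260b and miR-4485-3p and for 38 of 668 names (5.69%). The median log2 fold change was 0.92 over the 6 tested members and 0.04 over all 668 names. For all 10 names summed the log2 value was 1.28 (95% interval -0.19 to 2.75, edgeR adjusted p = 0.744), and 0.33 without PRMT1 library 3.

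**Figure D3:**
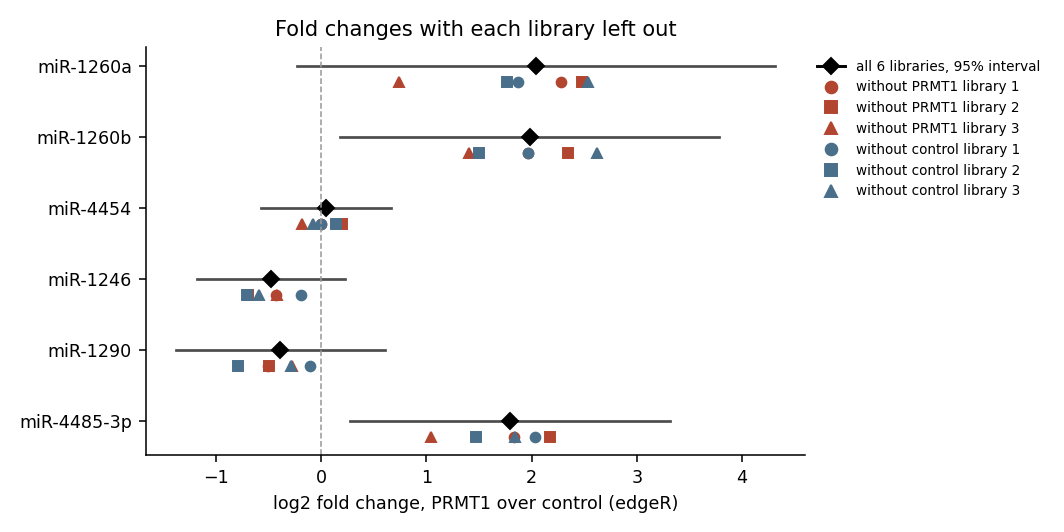
Log2 fold change of PRMT1 over control for the 6 tested names with the 95% interval over all 6 libraries (black), and the value with each library left out (coloured). Without PRMT1 library 3, miR-1260a is at 0.74, against 2.04 over all libraries, and the values of miR-4454 stand on both sides of 0.

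Replicates of 1 group differed more for some members than for most miRNAs. SDs were taken of log2 of CPM plus 0.5, an offset that shrinks the spread of names at low levels, such as miR-1260b. Among PRMT1 libraries the SD was 1.63 for miR-1260a, 1.22 for miR-4485-3p and 0.99 for miR-1260b. These were ranks 12, 19 and 29 of 668, where the median of all names was 0.30. Among control libraries these SDs were 0.75, 0.64 and 0.98, ranks 56, 88 and 26, where the median was 0.32. From the lowest to the highest of the 6 libraries, miR-1260b spanned 30.6-fold, with 4 counts at its lowest, miR-1260a 15.0-fold and miR-4485-3p 12.2-fold, while miR-1290 spanned 3.57-fold, miR-1246 2.22-fold and miR-4454 1.78-fold. The median span of all names was 2.12-fold.

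Rows for tRNA, U2 and SNORA2 with SNORA34 were deposited beside the names. For miR-4485-3p, miR-3648 and miR-663a the comparison was with class rRNA as a whole, whose 10 rows are Rfam families, none of them specific to mitochondrial rRNA or the rRNA precursor, so it is not a comparison with the RNA that these names resemble. The tRNA row held 0.292%, 0.560% and 0.502% of all counts in PRMT1 libraries 1 to 3, against 0.382%, 0.352% and 0.324% in control libraries 1 to 3, so its highest value was in PRMT1 library 2, where miR-1260a was lowest of the PRMT1 libraries. Rows of class rRNA held 1.698%, 4.03% and 2.87% of all counts in PRMT1 libraries and 3.39%, 2.37% and 4.17% in control libraries. The U2 row held 0.00392%, 0.00344% and 0.00447% in PRMT1 libraries and 0.00473%, 0.00339% and 0.00440% in control libraries. Groups overlapped in all of them, with two-sided exact permutation p-values of 0.4 for tRNA, 0.6 for rRNA and 0.8 for U2, and Benjamini-Hochberg values of 0.56, 0.7 and 0.8 over 7 shares tested. The other shares, those of the 10 names, the tRNA-resembling names, the U2-resembling names and miR-4485-3p in all counts, had exact permutation p-values of 0.3, 0.3, 0.4 and 0.3 (Benjamini-Hochberg 0.56 each). With 3 against 3 libraries this test cannot give a p below 0.1.

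Set against these rows, the names varied widely between libraries. For each 1000 counts of the tRNA row there were 33.3, 5.81 and 48.2 counts of the tRNA-resembling names in PRMT1 libraries and 9.55, 8.82 and 17.8 in control libraries. The groups overlapped, with a log2 difference of 0.88 (exact permutation p = 0.4), which became 0.28, 0.55 and 1.81 when PRMT1 libraries 3, 1 and 2 were left out in turn. For each 1000 counts of the U2 row there were 321, 351 and 212 counts of miR-1246 and miR-1290 in PRMT1 libraries and 474, 262 and 362 in control libraries, a log2 difference of -0.30 (exact permutation p = 0.4). Leaving out PRMT1 library 3 gave -0.083, leaving out control library 1 gave -0.098 and leaving out control library 2 gave -0.52.

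For each 1000000 counts of class rRNA, miR-4485-3p had 499.7, 54.8 and 477 counts in PRMT1 libraries and 94.0, 47.0 and 65.0 counts in control libraries. PRMT1 libraries 1 and 3 lay above every control library and PRMT1 library 2 among them, with a log2 difference of 1.84 (exact permutation p = 0.3), with 1.29, 2.89 and 1.33 when PRMT1 libraries 1, 2 and 3 were left out in turn. MiR-3648 and miR-663a together had 26.9, 8.65 and 8.73 counts for each 1000000 in PRMT1 libraries and 2.41, 3.36 and 8.997 in control libraries, from 2 to 11 counts a library, a log2 difference of 1.60 (exact permutation p = 0.3), which was 1.06 without PRMT1 library 1. All 4 ratios had a Benjamini-Hochberg value of 0.4.

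**Figure D4:**
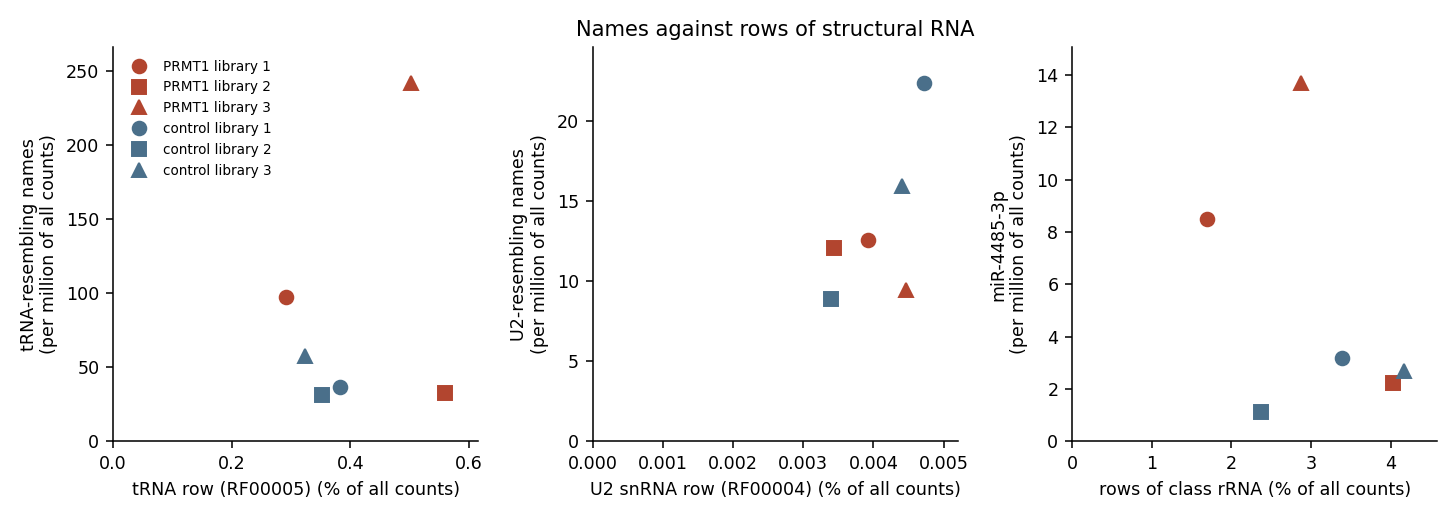
Share of the tRNA row, the U2 row and class rRNA in all counts (horizontal) against the tRNA-resembling names, the U2-resembling names and miR-4485-3p, per 1000000 of all counts (vertical), 1 point for each library. PRMT1 library 2 has the highest tRNA share, 0.560%, with 32.5 per 1000000 of tRNA-resembling names, and PRMT1 library 3 has 242 per 1000000 at a tRNA share of 0.502%.

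Over the 6 libraries no relation between names and these rows passed the test, among 4 computed, all on shares of the same library totals. For tRNA-resembling names and the tRNA row, Pearson's r was 0.27 (permutation p = 0.692, Benjamini-Hochberg 0.922) and Spearman's rho -0.20 (permutation p = 0.714, Benjamini-Hochberg 0.919), and r was -0.90 without PRMT1 libraries 2 and 3, the farthest from the median tRNA share. For miR-1246 with miR-1290 and the U2 row, r was 0.66 (permutation p = 0.158, Benjamini-Hochberg 0.633) and rho 0.66 (permutation p = 0.175, Benjamini-Hochberg 0.7), and r was 0.57 without PRMT1 library 2 and control library 2. For miR-4485-3p and class rRNA, r was -0.41 (permutation p = 0.425, Benjamini-Hochberg 0.85) and rho -0.26 (permutation p = 0.658, Benjamini-Hochberg 0.919), and r was -0.19 without PRMT1 library 1 and control library 3. For miR-3648 with miR-663a and class rRNA, r was 0.014 (permutation p = 0.968, Benjamini-Hochberg 0.968) and rho 0.086 (permutation p = 0.919, Benjamini-Hochberg 0.919), and r was 0.65 without the same libraries. The labels give no batch within which these could be repeated.

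Each of the 3 most abundant members was compared with 158 other names of at least 100 CPM. The measure was the Pearson correlation of log2 of CPM plus 0.5 over the 6 libraries. The names that followed a member most closely were picked, as a description. For miR-1260a these were miR-769-5p (r = 0.87) and miR-181a-3p (r = 0.87), which spanned far less, with miR-769-5p at 102, 89.0 and 118 CPM in PRMT1 libraries and 93.5, 98.8 and 103 CPM in control libraries. For miR-4454 they were miR-126-3p (r = 0.93) and miR-192-5p (r = 0.92). For miR-1246 they were miR-200b-5p (r = 0.97) and miR-361-5p (r = 0.92), and miR-200b-5p stood at 128, 168 and 108 CPM in PRMT1 libraries and 352, 141 and 186 CPM in control libraries.

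A list of 22 further names known to overlap snoRNA, tRNA, rRNA or mitochondrial RNA was read beside the members. Of these, 14 had a count and 6 were tested, with 3 log2 fold changes above 0, 3 below 0 and 0 called (lowest edgeR adjusted p = 0.800). MiR-1973, which matches mitochondrial RNA, had 148, 50 and 166 counts in PRMT1 libraries and 114, 67 and 70 counts in control libraries, with a log2 fold change of 0.53 (SE 0.43). Its highest counts were in PRMT1 libraries 3 and 1, as for miR-4485-3p. MiR-12136, also of mitochondrial sequence, was at 202, 124 and 215 CPM in PRMT1 libraries and 184, 104 and 273 CPM in control libraries (log2 -0.05, SE 0.37). The snoRNA-derived miR-664a-3p was at 14.3, 21.5 and 15.9 CPM in PRMT1 libraries and 18.5, 25.0 and 16.6 CPM in control libraries (log2 -0.22, SE 0.28), and the fitted change of miR-664b-3p was 0.06 on the log2 scale (SE 0.29). The rRNA-like miR-10396a-5p and miR-10396b-5p had log2 fold changes of 0.31 (SE 1.23) and -0.29 (SE 0.50). The other 8 names with a count had at most 23 counts in a library.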

How the data were processed

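Small RNA of 6 BEAS-2B libraries was sequenced and filtered by BGI, per the series' design text. Per the submitters' processing notes, HISAT, Bowtie2, RSEM and GRCh37.p13 are named, with no role or order. The sources used here do not give the counting rule for reads with more than 1 match, nor any use of strand. The deposited counts were whole reads for each feature, not normalised, and summed exactly to the library total in the file headers. TPM values, also deposited, were the count per 1000000 of that total to within 0.005, with no length term, and served only for that check. A name with no row in a library was taken as 0.

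Known mature rows were filtered with filterByExpr, scaled with TMM and tested in edgeR 4.0.16 (quasi-likelihood, robust), with Benjamini-Hochberg adjustment over all 668 tested names and no block. DESeq2 1.42.0, without filterByExpr, and limma 3.58.1 were alternatives. Sums replaced their rows in the same table. An SE is the log2 fold change over the square root of F. Shares, ratios and relations were tested with two-sided exact permutations. The test was first tried on simulated data. The members and lists were chosen with earlier results of these data known. Named are all 10 members, the rows of the RNA they resemble, the 2 names of at least 100 CPM that correlated best with each of the 3 most abundant members, and the tested names of a list of the same kind. Added after the data were seen were the sum of miR-1260a and miR-1260b and the paired ratios. Mature sequences are from RefSeq (GRCh38.p14) and transcripts from GENCODE 29, builds other than that of the notes.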

Additional observations from a re-analysis of the deposited data

How the results depend on the processing

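The fold changes of miR-1260a, miR-1260b, miR-4485-3p, miR-1246 and miR-1290 and of the sums kept their sign under every scaling, filter, tool and omission of a library that gave a value, and 0 members were called under these except 2 (miR-1260b and miR-4485-3p) without a filter (edgeR adjusted p = 0.0216 and 0.0493, log2 fold changes 1.99 and 1.79). The count of all known names called was 9 without a filter, 4 with DESeq2, 1 with the replicate block, and 0 to 1 over omissions of a library. MiR-4454 turned sign, at -0.0044 with RLE factors, -0.0015 with upper quartile factors and -0.083 on all rows, and ran from -0.18 to 0.20 over omissions. The difference in the U2 share, -0.00023 percentage points, was 0.00037 relative to known miRNAs without miR-21-5p, and ran from -0.00062 to 4.7e-05 over omissions, and that of class rRNA, -0.44 percentage points, from -1.03 to 0.14. The causes were not tested. MiR-1260b, miR-1290 and miR-4485-3p could not be tested at CPM 10 in 3 libraries, and a log ratio of miR-663a alone could not be formed because of its 0 count.

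With the replicate number as a block, log2 fold changes were 1.59 for miR-1260a, 2.09 for miR-1260b, 1.59 for miR-4485-3p, 1.18 for the tRNA-resembling sum and -0.40 for the U2-resembling sum, with 0 members called. Deviations of same-numbered libraries correlated at -0.143, 0.177 and -0.149, and of the 6 only library 2 of each group correlated best with its own number. With 3 libraries in a group these values cannot show whether same-numbered libraries were paired. Depth limits miR-1291, miR-3648 and miR-663a, with at most 10 counts in a library.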
